A study of Homo sapiens with 30 samples.

Results

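TEX14, CAP2, ANXA1, NR2F1 and FGF13 are 5 of the 19775 genes with a probe set of their own on the HG-U133 Plus 2.0 arrays used to profile KMS11. This established line was grown from a human multiple myeloma, a plasma cell cancer, and its t(4;14) translocation drives NSD2 (MMSET). They were chosen by their measured values: in the parental line PAR each was far above the line described as an NSD2 knockout, TKO, or above the reconstituted line WT. The differences of PAR from TKO and from WT therefore chose the genes and are given as description, with no test. The 5 genes have 7 probe sets, and the brightest of each gene is its main probe set here. For FGF13 the data went against the name of a gene seen only in the parental line, since its level in WT was close to that in PAR.

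The series holds 30 arrays of 10 lines, each with 3 replicate cultures. PAR carries no transgene. TKO is NSD2-deficient by its label, and per the series title the other 8 lines are reconstituted, which is taken here to mean transgenes put into TKO cells. WT received wild-type NSD2, WT+MMSET1 wild-type NSD2 with the short isoform MMSET I, and CDM a catalytically inactive mutant. CDM+MMSET1 received this mutant with MMSET I, and MMSET1 received MMSET I alone. H762Y received NSD2 carrying that substitution, which lies in one of its PHD fingers, domains that fold around zinc. The lines 526-1240 and 526-1365 received fragments named by their first and last residues. Each transgene is represented by 1 line, a line with an empty vector is not analysed here, and whether lines are clones or pools, and which promoter drives the transgenes, is not stated in the labels.

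NSD2 is a histone methyltransferase whose SET domain dimethylates lysine 36 of histone H3, a mark linked to active transcription, and MMSET I lacks that domain. Overexpression of NSD2 through t(4;14) is known to spread this mark in myeloma cells and to change the expression of many genes. The 5 genes have unrelated known roles. TEX14 is needed for the bridges that join developing germ cells. CAP2 is a cyclase-associated protein that binds actin and helps to recycle its monomers. ANXA1 is an annexin, a calcium-dependent phospholipid-binding protein that damps inflammation through a formyl peptide receptor. NR2F1 (COUP-TFI) is an orphan nuclear receptor of neural development. FGF13 belongs to the fibroblast growth factor homologous factors, which stay inside the cell and bind voltage-gated sodium channels.

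Levels are on the log2 scale of the authors' RMA values, so that a difference of 1 is a change of 2-fold. Their median over all probe sets and arrays was 5.013, and a value below it is called dim, since RMA values carry no call of presence. A fold against a dim mean is a fold of array values. Of 10 plasma cell markers, 9 were above that median on average, and their mean log2 value lay between 9.70 and 9.87 in the PAR arrays and between 9.78 and 9.86 in the TKO arrays. Single plasma cell markers moved both ways between PAR and TKO, with JCHAIN (-2.14) and POU2AF1 (-0.89) lower and CD38 (1.5), SDC1 (0.89) and TNFRSF17 (0.54) higher in PAR. Mean levels of T cell markers (4.15 to 4.35 in PAR) and of monocyte and macrophage markers (4.18 to 4.22) were dim, and so were those of 7 fibroblast markers (4.67 to 4.77) and 8 germ cell markers (3.01 to 3.07). The 6 epithelial markers had mean log2 values of 5.55 to 5.76 in PAR and 4.95 to 5.08 in TKO, and the 5 markers of earlier B cells 5.74 to 6.09 and 4.86 to 5.03. EPCAM (9.56 in PAR, 6.71 in TKO) led the first list and CR2 (9.74 and 4.22) the second, in which PAX5 (5.25 and 5.37), BLK (4.48 and 4.81) and MS4A1 (3.80 and 3.91) read lower in PAR, with PAX5 and BLK not called and MS4A1 too dim to be tested. Their part in the results was not tested. NSD2 itself still gave signal in TKO, with log2 values of 10.07 to 10.29 on the brightest of its 6 probe sets against 10.58 to 10.66 in PAR, so the arrays do not by themselves show the knockout. H762Y replicate 1 stood apart from its own line (r = 0.9583 and 0.9614 across genes), and PAR replicate 1 was the least like the other PAR arrays (r = 0.9704 to 0.9828).

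The stretches of 250 bases before the annotated starts are shown to set the promoters of CAP2, NR2F1 and ANXA1 beside that of FGF13, whose pattern differed. RefSeq's table for GRCh38.p14 held 6 such windows for 4 of the genes, and none was matched to TEX14. One window per gene is printed in the direction of transcription, with matches to CCAAT and to TATAAA, on either strand, in capitals.
CAP2, chr6:17393345-17393594, plus strand: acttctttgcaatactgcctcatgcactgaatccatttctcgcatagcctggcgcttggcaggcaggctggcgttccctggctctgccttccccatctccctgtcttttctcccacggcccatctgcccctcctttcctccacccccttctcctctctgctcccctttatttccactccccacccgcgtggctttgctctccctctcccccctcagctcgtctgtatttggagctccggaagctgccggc
ANXA1, chr9:73151615-73151864, plus strand: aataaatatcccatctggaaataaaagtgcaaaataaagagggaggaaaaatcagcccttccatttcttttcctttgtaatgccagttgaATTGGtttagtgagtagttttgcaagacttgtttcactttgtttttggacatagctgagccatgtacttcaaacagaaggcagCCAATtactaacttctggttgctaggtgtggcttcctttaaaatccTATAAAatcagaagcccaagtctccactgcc
NR2F1, chr5:93582972-93583221, plus strand: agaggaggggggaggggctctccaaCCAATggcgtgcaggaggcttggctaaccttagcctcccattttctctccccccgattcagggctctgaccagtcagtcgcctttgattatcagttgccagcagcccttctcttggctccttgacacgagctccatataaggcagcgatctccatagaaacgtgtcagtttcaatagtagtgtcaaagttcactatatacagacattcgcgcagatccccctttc
FGF13, chrX:139205024-139205273, minus strand: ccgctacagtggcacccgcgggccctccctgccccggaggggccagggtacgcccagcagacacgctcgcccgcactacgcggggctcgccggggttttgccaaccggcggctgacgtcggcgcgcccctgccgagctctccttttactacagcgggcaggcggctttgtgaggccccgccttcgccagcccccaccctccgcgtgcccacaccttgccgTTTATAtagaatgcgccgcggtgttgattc
The FGF13 window held 29 CG pairs, and 85.9% of the 35116 promoters in the table held fewer, while the second FGF13 window, not printed, held 0. The CAP2 window held 9 and this NR2F1 window 8, near the median of 11 over all promoters, while the ANXA1 window held 0. A TATAAA lay at 31 to 26 bases before the start of ANXA1 (-31 to -26), the usual place of a TATA box, and a match on the opposite strand at -30 to -25 of FGF13. TATAAA was found in 3 of the 6 windows and in 10.7% of all promoters, and CCAAT in 2 of 6 and in 32% of all. The remaining TATAAA match lay on the opposite strand at -111 to -106 of the second NR2F1 window, not printed, which held 2 CG pairs. The 4 other motifs searched on both strands were AGGTCA (12.1% of all promoters), GGGCGG (42.6%), TGACTCA (4.2%) and TGCTGA (14%), and 0 of the 6 windows held any of them. AGGTCA is the half-site that nuclear receptors such as NR2F1 bind. No motif searched was found in all 4 genes, and a match is a description of the letters in a window.

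TEX14 was high in PAR and above the median elsewhere. The 3 PAR arrays read 9.45, 10.36 and 10.24, with a mean of 10.02 ± 0.494 (SD, n = 3). The other 27 arrays lay between 5.06 and 6.87 with a median of 5.76, so that every PAR array was above every other array. TKO averaged 5.76 ± 0.358 and WT 6.01 ± 0.401, which put PAR 4.25 above TKO (19.1-fold) and 4.0 above WT (16-fold) on the log2 scale. All 30 arrays were above the median of all values, so TEX14 was the only member of the 5 with no dim array. Below PAR the order of line means ran from H762Y (6.35 ± 0.609) over WT and CDM+MMSET1 (5.88 ± 0.0276) down to 526-1365 (5.60 ± 0.419). Neighbours in that order differed by less than their SDs or overlapped array by array. In H762Y the replicates read 5.68, 6.87 and 6.51, and replicates 2 and 3 were the 2 highest values outside PAR.

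CAP2 and NR2F1 were dim on every array outside PAR. The main probe set of CAP2 read 6.44, 7.21 and 7.37 in the PAR arrays (7.0 ± 0.496, SD, n = 3). The other 27 arrays lay between 2.79 and 3.61 with a median of 3.14. TKO averaged 3.15 ± 0.0699 and WT 3.17 ± 0.197, a difference smaller than the SD of the WT arrays. NR2F1 has 1 probe set, which read 6.58, 6.52 and 6.41 in the PAR arrays (6.51 ± 0.0875, SD, n = 3). The other 27 arrays lay between 2.95 and 3.55 with a median of 3.28, and TKO averaged 3.23 ± 0.13 and WT 3.16 ± 0.06. PAR was 3.85 above TKO (14.4-fold) for CAP2 and 3.28 (9.71-fold) for NR2F1, and 3.83 and 3.35 above WT. Both genes passed the filter on low values (above the median on at least 3 arrays) through the 3 PAR arrays alone, so that they had to differ there, and their tests between other lines compare dim values.

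ANXA1 was the most variable of the 5 genes. Its main probe set read 7.84, 6.23 and 5.55 in the PAR arrays (6.54 ± 1.17, SD, n = 3), and 99.7% of the genes tested had a lower SD in PAR. The 3 TKO arrays read 2.97, 2.71 and 3.11, and the WT arrays 3.14, 2.90 and 3.09. The remaining arrays were dim except replicate 1 of 526-1240, which read 5.29 while replicates 2 and 3 of that line read 3.10 and 3.05. In 526-1365, replicate 1 likewise read 4.48 and the other replicates 2.88 and 2.91. Replicate 1 was the highest of the 3 arrays in 9 of the 10 lines, TKO being the exception. For TEX14, replicate 1 was the lowest of the 3 arrays in 10 of the 10 lines. In those arrays of 526-1240 and 526-1365, TEX14 read 5.06 and 5.20, the lowest of its line, and FGF13 8.12 and 8.62. CAP2 read 3.35 and 3.23 and NR2F1 3.34 and 3.37, and in 526-1240 both were the highest of the line. The labels name no batch, and the part of the replicate number in these values was not tested.

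**Figure D1:**
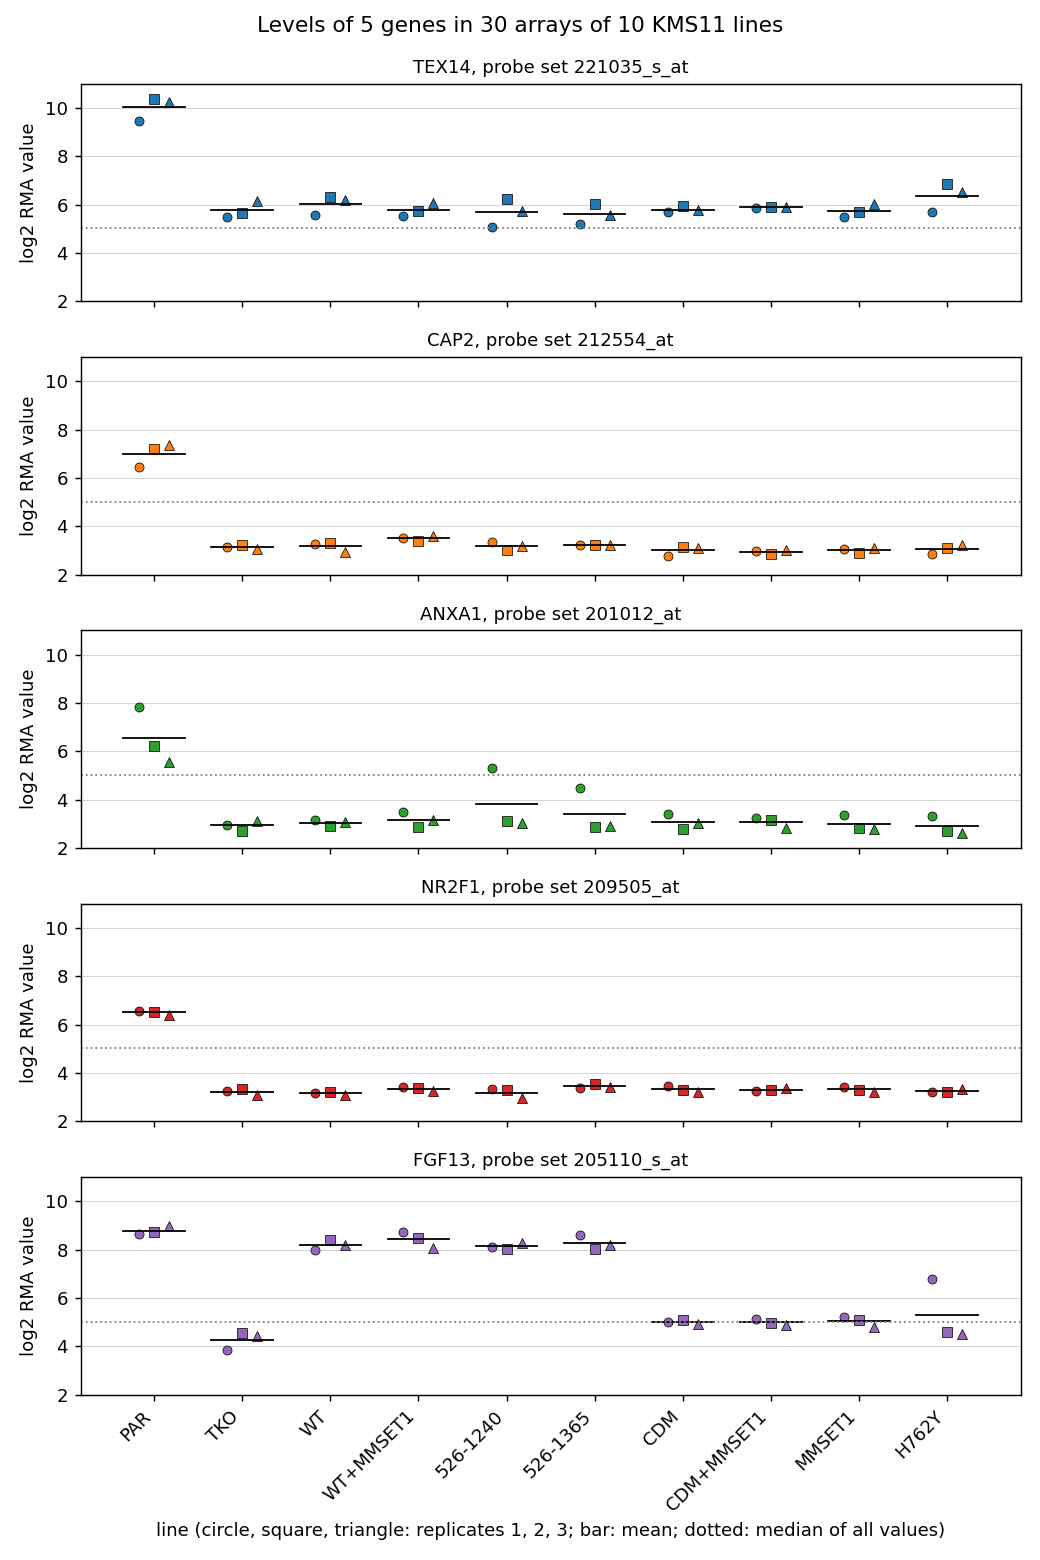
Levels of the 5 genes in each of the 30 arrays (y axis, log2 RMA value) by line (x axis); circles, squares and triangles are replicates 1, 2 and 3, bars the means of 3 arrays, and the dotted line the median of all values, 5.013. TEX14, CAP2 and NR2F1 stand at 6.41 or higher in the PAR arrays, above all other lines of the same gene, whereas FGF13 is also high in WT, WT+MMSET1 and both fragment lines.

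FGF13 had another pattern. Its probe set read 8.64, 8.71 and 8.99 in the PAR arrays (8.78 ± 0.187, SD, n = 3) and 3.86, 4.54 and 4.42 in the TKO arrays (4.28 ± 0.364), a difference of 4.50 (22.7-fold). The WT arrays read 7.98, 8.38 and 8.17 (8.18 ± 0.202), which was 3.90 above TKO and 0.60 below PAR. The arrays of PAR lay above those of WT without overlap, although the 95% interval of that difference ran from -0.12 to 1.33. Both are description and not a test, since the choice read this difference. WT+MMSET1 read 8.72, 8.48 and 8.08, 526-1365 read 8.62, 8.03 and 8.19, and 526-1240 read 8.12, 8.02 and 8.26. The 15 arrays of PAR and these 4 lines thus lay between 7.98 and 8.99. The 9 arrays of CDM, CDM+MMSET1 and MMSET1 lay between 4.81 and 5.20, with line means of 5.01 ± 0.0863, 4.99 ± 0.125 and 5.03 ± 0.204, which neighbour each other within their SDs. These 3 lines were 0.71 to 0.76 above TKO, whose highest array, 4.54, was below all 9 of theirs. In H762Y, replicate 1 read 6.77 and replicates 2 and 3 read 4.61 and 4.52, and replicate 1 is the array that stood apart from its line across genes.

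The distance between the lowest PAR array and the highest array of any other line set the genes apart. It was 2.86 for NR2F1, 2.83 for CAP2 and 2.58 for TEX14 on the log2 scale, but 0.26 for ANXA1 and -0.09 for FGF13, whose highest array outside PAR was replicate 1 of WT+MMSET1 at 8.72. Without replicate 1 of both fragment lines, the distance for ANXA1 was 2.08. Among the 13137 genes tested, 24 (0.183%) had all PAR arrays at least 1 above every other array, and 19 had them at least 1 below (0.145%). NR2F1, CAP2 and TEX14 are among the 24; they were chosen by the PAR values, so this is a description. The next distances were COL4A5 (2.53), PLOD2 (2.34), FAR2 (2.32) and RELN (2.25). COL4A5 is a chain of basement-membrane collagen, PLOD2 a collagen lysyl hydroxylase, FAR2 a fatty acyl-CoA reductase and RELN a secreted matrix protein of neuronal migration. The same count was 1 high and 0 low for TKO and 0 for each of the 8 transgene lines. Many transgene arrays were closest to an array of another line, such as 526-1240 replicate 3 to 526-1365 replicate 3 (r = 0.9974). Every PAR and TKO array was closest to its own line. A gene shared by alike lines cannot count for 1 alone, so the counts of 0 are a limited background for PAR. Without PAR replicate 1 the count for PAR rose to 46. PAR differs from the other 9 lines by the knockout step and from 8 of them by a transgene as well, and the spread between separately kept lines cannot be told apart from these.

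**Figure D2:**
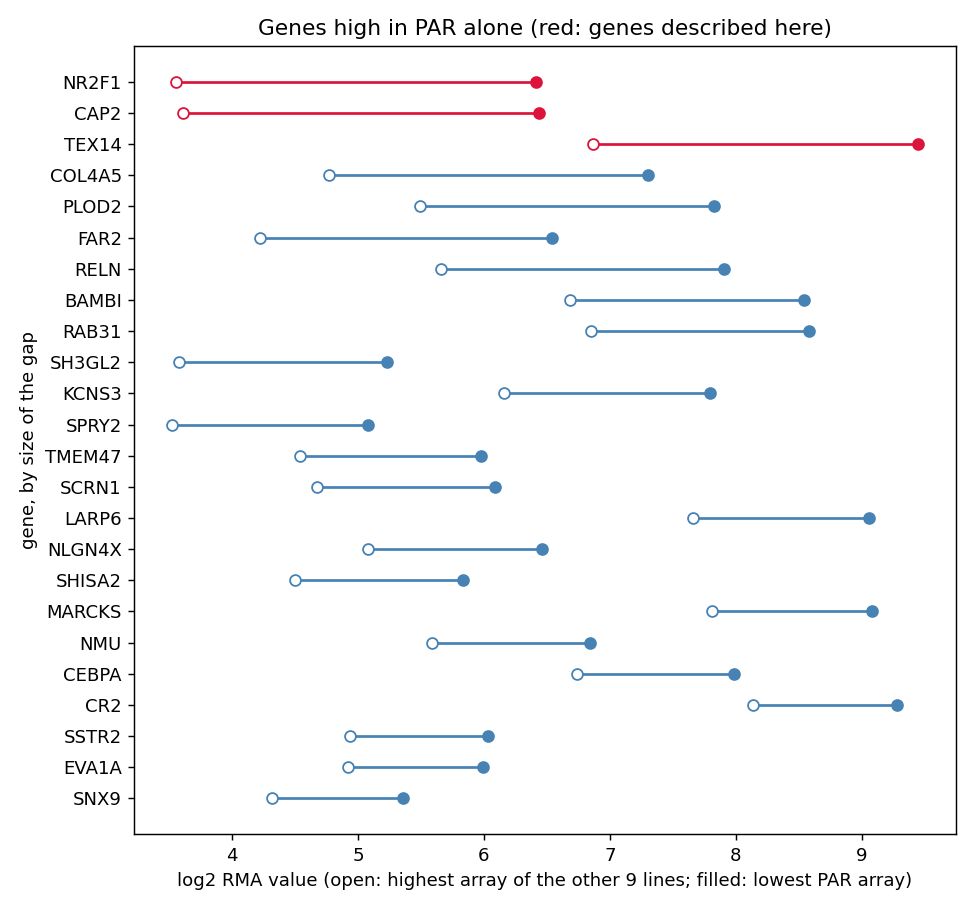
The 24 genes that were high in PAR alone, with the highest array of the other 9 lines (open) and the lowest PAR array (filled) on the log2 RMA scale (x axis). NR2F1, CAP2 and TEX14, in red, were chosen for their PAR values and span 2.58 to 2.86, and ANXA1 and FGF13 are not among the 24.

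Second probe sets gave different pictures for CAP2 and ANXA1. The dimmer CAP2 probe set read 4.68, 6.52 and 6.49 in the PAR arrays and 3.03 to 3.55 in the other 27, so PAR was again above every other array, with replicate 1 lowest and dim. The dimmer ANXA1 probe set was dim on all 30 arrays, from 2.43 to 3.38, and its PAR arrays (3.38, 2.68 and 2.89) overlapped those of other lines. With the mean of both probe sets, the difference of PAR from TKO was 3.28 for CAP2. The high level of ANXA1 in PAR therefore rested on 1 of its 2 probe sets.

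**Figure D3:**
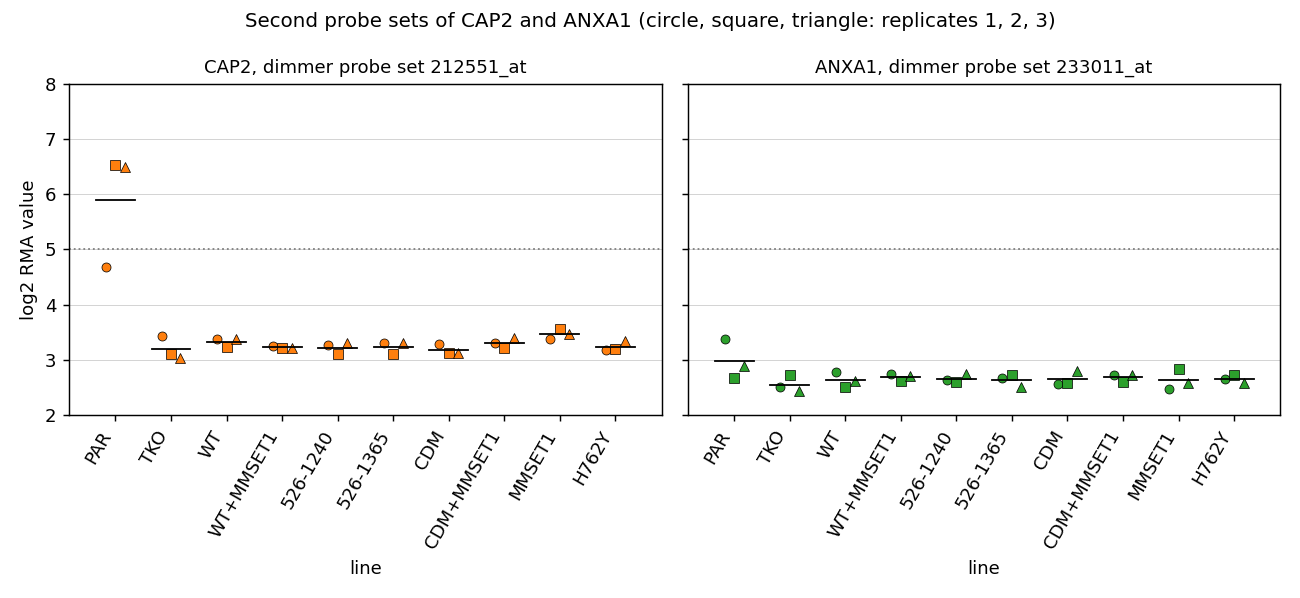
Values of the dimmer probe sets of CAP2 (left) and ANXA1 (right) by line, on the log2 RMA scale (y axis), with replicates 1, 2 and 3 as circles, squares and triangles and means of 3 arrays as bars. CAP2 is high in PAR only, where replicate 1 (4.68) is below the other replicates, and the ANXA1 probe set stays between 2.43 and 3.38.

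Comparisons without the arrays of PAR, TKO and WT were open to a test, since they hold none of the arrays that chose the genes. WT+MMSET1 shares wild-type NSD2 with WT, and its replicates 2 and 3 were closest to WT arrays (r = 0.9959 and 0.9955). For genes chosen as lower in WT than in PAR, low values in WT+MMSET1 are therefore not independent of the choice. FGF13 was chosen as low in TKO, so its low values in lines taken to come from TKO cells are not independent of it either. The comparisons address whether a form of NSD2 with a working SET domain goes with a higher level of each gene. That the domain works is taken from the transgene names and, for the fragments, assumed. The arrays measure no methylation. The 3 lines WT+MMSET1, 526-1240 and 526-1365 were set against the 3 lines CDM, MMSET1 and CDM+MMSET1. H762Y, whose named substitution lies in a PHD finger and not in the SET domain, was on neither side. FGF13 read 6.77, 4.61 and 4.52 in H762Y, so the result below covers these 6 lines only. FGF13 was higher in the lines with a working SET domain, 8.28 against 5.01, a difference of 3.27 on the log2 scale (9.65-fold, SE 0.202, 95% interval 2.85 to 3.69, limma adjusted p = 4.15e-12), and the arrays did not overlap. The error in this and the other tests comes from the cultures of a line. With 1 line per transgene, the p values and intervals do not measure the spread between lines. TEX14 differed by -0.12 (-0.48 to 0.24), NR2F1 by 0.00 (-0.11 to 0.12) and ANXA1 by 0.42 (-0.18 to 1.02), with limma adjusted p values of 0.606, 0.95 and 0.247. CAP2 passed the threshold at 0.32 (SE 0.0928, limma adjusted p = 0.00613), but both means were dim (3.31 and 2.99) and the arrays overlapped. CAP2, NR2F1 and ANXA1 entered this test through the PAR arrays and are not tested when the filter reads only these 6 lines. With the mean of both CAP2 probe sets the difference was 0.12 (adjusted p = 0.411, the highest of 27 alternatives, which ranged from 0.000199), and the dimmer probe set alone gave -0.08. FGF13 and, with this limit, CAP2 were thus called higher and 0 of the 5 lower, while 24.3% of the 13137 genes were called higher and 49.6% in either direction.

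FGF13 gave the same order in each pair of these lines. WT+MMSET1 exceeded CDM+MMSET1 by 3.44 (SE 0.35, 2.72 to 4.16, limma adjusted p = 1.63e-07), where 16.1% of all genes were called higher and 32.1% in either direction. CAP2 was also called, with the same limit, at 0.56 (SE 0.161, limma adjusted p = 0.0107), between means of 3.51 and 2.95, and it was no longer called with the mean of its probe sets (0.24, adjusted p = 0.364, the highest of 15 alternatives, which ranged from 0.00115). The dimmer CAP2 probe set alone gave -0.08. Against CDM, FGF13 was 3.13 higher in 526-1240 (2.40 to 3.85, limma adjusted p = 4.21e-07) and 3.27 higher in 526-1365 (2.55 to 3.99, limma adjusted p = 2.19e-07). It was the only one of the 5 genes called in either, where 10.8% and 10.4% of all genes were called higher and 19.2% and 18.2% in either direction. ANXA1 was 0.74 above CDM in 526-1240 (-0.30 to 1.78, limma adjusted p = 0.314), and 0.00 without 526-1240 replicate 1. FGF13 was 0.15 lower in 526-1365 than in WT+MMSET1, with an interval from -0.87 to 0.57 (limma adjusted p = 0.993).

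The remaining comparisons called none of the 5 genes. CAP2, NR2F1 and ANXA1 were dim in all lines compared here and were tested only through arrays of other lines, so they could hardly be called. Between H762Y and CDM, limma called 0 of the 5 genes and 0.0533% of all genes, and 0 of the 5 had an unadjusted p under 0.05. TEX14 came closest, 0.55 higher in H762Y (-0.08 to 1.18, limma adjusted p = 0.772). FGF13 was 0.29 higher in H762Y (-0.43 to 1.01, limma adjusted p = 0.91), and -0.44 without H762Y replicate 1 (adjusted p = 0.305, with 0.275 to 1 over 15 alternatives). Adding MMSET I to the inactive mutant (CDM+MMSET1 against CDM) called 0 of the 5 genes and 0.0457% of all genes by limma, again with 0 of the 5 at an unadjusted p under 0.05, and FGF13 differed by -0.02 (-0.74 to 0.70). Between 526-1365 and WT+MMSET1, 0 of the 5 and 0.7% of all genes were called, with 0 of the 5 at an unadjusted p under 0.05. A fit of these lines alone called 17 genes in place of 92, and 290 with the replicate number as a block, and 0 of the 5 were called in either. CAP2 there was 0.27 lower in 526-1365 (-0.61 to 0.06). The difference of 526-1365 from CDM was also set against that of WT+MMSET1 from CDM+MMSET1. It was -0.17 for FGF13 (-1.19 to 0.85), and limma called 0 of the 5 genes and 0.662% of all genes, with 0 of the 5 at an unadjusted p under 0.05.

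**Figure D4:**
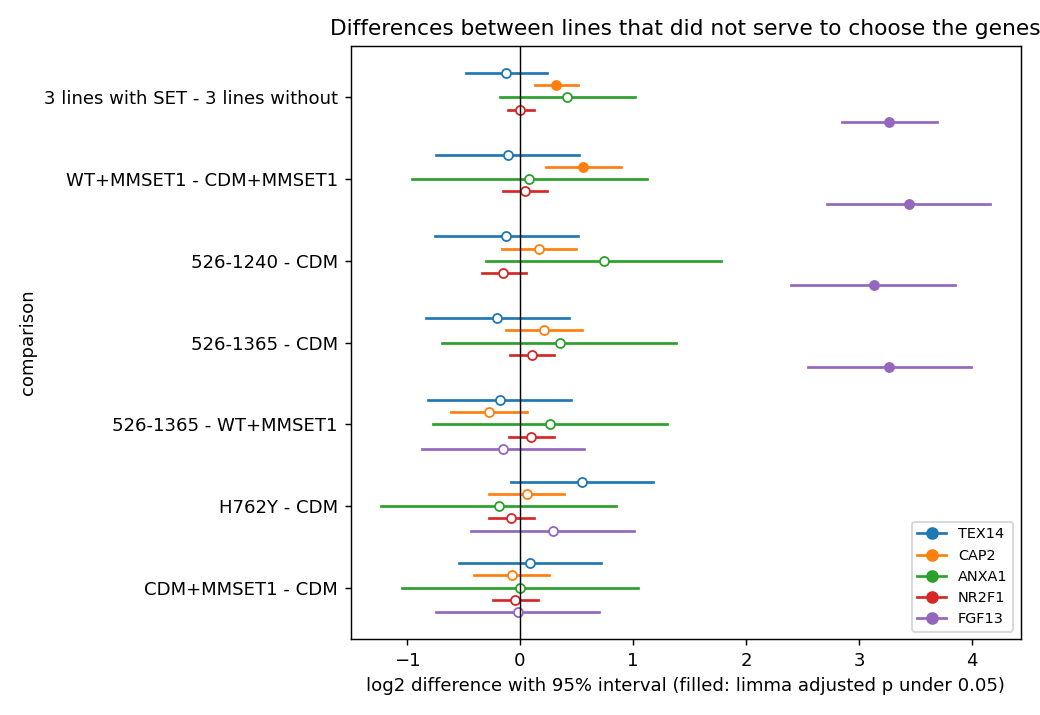
Log2 differences of the 5 genes with 95% intervals (x axis) in 7 comparisons of lines that did not serve to choose them (y axis); filled points have a limma adjusted p under 0.05. FGF13 lies at 3.13 to 3.44 in the first 4 comparisons, the filled CAP2 points stand at 0.32 and 0.56, and the intervals of TEX14, ANXA1 and NR2F1 all include 0.

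By their pattern over the 30 arrays, 3 of the 5 genes shared their nearest genes. RELN correlated most closely with NR2F1 (r = 0.975), CAP2 (r = 0.970) and TEX14 (r = 0.943), and it averaged 8.12 in PAR, 5.21 in TKO and 5.44 in WT. FAR2 came next for CAP2 (0.969) and NR2F1 (0.959), followed by COL4A5 for CAP2 (0.958) and SPRY2, an inhibitor of receptor tyrosine kinase signalling, for NR2F1 (0.956). SSTR2, a somatostatin receptor, and SPRY2 followed for TEX14 (0.941 and 0.935). For FGF13 the nearest were PERP (0.985), a desmosomal membrane protein, HEBP1 (0.980), a haem-binding protein, and PLAG1 (0.978), a zinc finger transcription factor. PERP averaged 10.65 in PAR, 6.71 in TKO and 10.51 in WT. For ANXA1 the nearest, FOXJ2, ELF4 and RPL35, reached only 0.878, 0.875 and 0.865, and RPL35, a ribosomal protein, moved from 13.14 in TKO to 13.40 in PAR. These correlations are over arrays that share lines and are given without p. They include the PAR arrays by which the genes were chosen, so genes high in PAR alone must come out near TEX14, CAP2 and NR2F1. RELN, FAR2, COL4A5, SPRY2 and SSTR2 are all among the 24 such genes.

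Among themselves, TEX14, CAP2 and NR2F1 correlated at 0.939 to 0.974 over the 30 arrays. Over the 27 arrays outside PAR the same 3 pairs stood at -0.109, -0.243 and 0.095, so the shared pattern lay in the step from PAR to the rest. The genes were chosen for high PAR values, so their correlation over all arrays follows from the choice and is a description. FGF13 correlated with the other 4 at 0.324 to 0.491. ANXA1 and TEX14 had a correlation of 0.723 over all arrays and -0.634 outside PAR.

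The genes beside the 5 in the genome mostly did not follow them. For each gene, the 2 nearest genes tested on each side were read, 20 in all, with RefSeq's gene order. Between PAR and TKO the 4 neighbours of TEX14 on chromosome 17, SEPTIN4, MTMR4, RAD51C and TRIM37, differed by 0.02, -0.20, -0.04 and -0.22, and limma called 0 of them (1, TRIM37, at an unadjusted p under 0.05), while TEX14 differed by 4.25. Over the 16 neighbours of TEX14, CAP2, ANXA1 and NR2F1, 2 were higher in PAR and 1 lower, and the differences ran from -0.72 to 0.43. Higher were ZFAND5 near ANXA1 (0.40, limma adjusted p = 0.00139) and SKIC3 near NR2F1 (0.43, limma adjusted p = 0.0245). Lower was ATXN1 near CAP2 (-0.72, limma adjusted p = 0.0174). Against WT, 0 of the 16 were higher in PAR and 6 lower. Between PAR and TKO, 22.3% of all genes were called, and between PAR and WT 30.6%. NR2F1-AS1, a separate gene next to NR2F1 that is transcribed the opposite way, read 4.97, 5.25 and 4.74 in the PAR arrays on its brightest probe set and 3.61 to 4.18 in the other 27, without overlap. It was above the median of all values on too few arrays to be tested, and its 2 other probe sets were dim throughout.

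Of the 4 neighbours of FGF13 on the X chromosome, 2 were higher both in PAR than in TKO and in the SET comparison, where 24.3% of all genes were higher. ARHGEF6, a guanine nucleotide exchange factor for Rac, was 1.56 higher in PAR than in TKO (limma adjusted p = 3.27e-05) and 0.61 higher in the lines with a working SET domain than in those without (limma adjusted p = 0.00118). LDOC1 was 0.71 (limma adjusted p = 2.58e-05) and 0.52 higher (limma adjusted p = 6.51e-07). GPR101, on the same side as ARHGEF6, differed by -0.04 between PAR and TKO. ARHGEF6 (0.78), UBE2NL (0.56) and LDOC1 (0.41) were called higher in PAR than in WT, and UBE2NL was lower in the SET comparison (-0.45, limma adjusted p = 0.00107). These neighbours start 1590 to 5270 kb from the start of FGF13.

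Relatives and partners of the 5 genes were counted from lists of known genes without the genes themselves, beside 22.3% of all genes called between PAR and TKO, 30.6% between PAR and WT and 49.6% in the SET comparison. Of 7 annexins tested, 3 were higher in PAR than in TKO and 2 lower, with a median of 0.26 against -0.03 over all genes. ANXA4 (0.53), ANXA11 (0.50) and ANXA5 (0.44) were higher and ANXA6 (-1.01) and ANXA7 (-0.42) lower, all far smaller than the 3.61 of ANXA1. Of 3 partners of ANXA1 tested, 0 were called between PAR and TKO by limma, also at an unadjusted p under 0.05, and PLA2G4A, a phospholipase that annexins inhibit, was 1.43 lower in lines with a working SET domain (limma adjusted p = 2.74e-05). In the family of FGF13 only FGF11 was tested, and it differed by 0.10 between PAR and TKO. Of 3 sodium channel genes tested, SCN9A was 1.19 higher in PAR than in TKO (limma adjusted p = 0.00332). SCN3A was 1.84 higher in the SET comparison (limma adjusted p = 2.47e-07), with overlapping arrays. Outside that comparison, SCN3A means in WT (4.39) and PAR (4.02) were near those of MMSET1 (4.21) and CDM+MMSET1 (4.22).

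Among 13 genes of actin turnover, the pathway of CAP2, 2 were higher in PAR than in TKO and 1 lower, close to the share of all genes called. PFN2, a profilin, rose by 1.87 and DSTN, an actin-depolymerising factor, by 0.71, while CFL2 fell by 0.55. In lines with a working SET domain 2 were higher, PFN2 (1.64) and DSTN (0.45), and 3 lower, TWF1 (-0.65), PFN1 (-0.65) and CFL1 (-0.34). Of 8 genes tested with NR2F1's family and retinoid signalling, 1 was higher between PAR and TKO (RXRA, 0.53) and 0 lower, and against WT 3 were higher, with CYP26A1, which degrades retinoic acid, at 0.95. In lines with a working SET domain CYP26A1 was lower by 1.99. Of 8 cytokinesis genes, chosen for TEX14's part in intercellular bridges, CEP55, which TEX14 binds, was 0.32 lower in PAR than in TKO and CHMP4B 0.26 lower, and 0 were higher. Against WT, 4 were lower in PAR, led by KIF23 (-1.08) and ANLN (-0.95).

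By size, the genes chosen against WT were ranks 2 to 5 of the differences of PAR from WT. COL4A5 was first (4.17), and the genes just below NR2F1 (3.35) were FAR2 (3.06) and NLGN4X (2.99). FGF13 held rank 10 of the differences of PAR from TKO (4.50), after SLC6A15 (4.70) and before GSAP (4.50) and PRKACB (4.32), while TEX14, CAP2, ANXA1 and NR2F1 held ranks 15, 40, 56 and 88 there. RRAS2, another gene high in PAR against TKO (7.90 against 3.04), read 6.80 in WT, whereas TEX14, CAP2, ANXA1 and NR2F1 in WT were 0.25, 0.02, 0.12 and -0.07 from TKO.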

How the data were processed

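Gene expression of 30 cultures was measured on HG-U133 Plus 2.0 arrays, 3 for each of 10 KMS11 lines, grouped by their labels. The authors normalized them by RMA and deposited log2 values, per the submitters' processing notes; no source used here states the RMA version or the chip definition. The table held 54613 probe sets and 0 columns of other series, with values from 1.91 to 14.62 and array medians from 4.986 to 5.039. No further normalization was applied. Because depth has no meaning for arrays, the number of arrays limits the precision.

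Probe sets were named from the platform annotation (41091 with 1 symbol, 1801 with several, 11721 not listed), and the brightest of a gene with 1 symbol was taken. A gene was tested if it exceeded 5.013 on at least 3 arrays, which left 13137 of 19775 genes. limma 3.58.1 in R 4.3.3 fitted a mean per line to all arrays (20 residual degrees of freedom), with empirical Bayes variances and Benjamini-Hochberg adjustment within each comparison. A gene was called at an adjusted p under 0.05. Intervals cover 95%. The series design calls the 3 arrays of a line biological triplicates of cultures.

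The 5 genes, the lists and the comparisons were chosen with earlier results of these data known. Named are the 5 genes, the 3 genes nearest each by Pearson correlation over 30 arrays, the 2 nearest tested genes on each side, up to 4 called genes of a list, the genes high in PAR alone and those next to the choice by rank. NR2F1-AS1 was added after its values were seen. Of 19775 genes, 19720 matched RefSeq by gene ID, whose gene order is that of GRCh38.p14. The code of the fits was run on simulated data with independent noise for each array. That noise lacks the correlation of same-numbered arrays given below, so the run does not check the p values for it. Alternatives left out each array, changed the probe set rule, filter, centring and variance model, and added the replicate number as a block. The residuals of same-numbered arrays correlated at 0.115 to 0.445 between PAR and TKO and at 0.442 to 0.644 between 526-1365 and WT+MMSET1. The replicate numbers were therefore taken to pair the arrays there, a pairing that comes from the data and is not stated by the labels. Over pairs of lines in the SET comparison the correlations ran from -0.223 to 0.815, which was not taken as pairing. The main fit holds no replicate block, so its values do not use the pairing.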

Additional observations from a re-analysis of the deposited data

How the results depend on the processing

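The calls of FGF13 in the 4 comparisons of lines with against lines without a working SET domain held in all alternatives run (29, 17, 17 and 17), with differences of 3.21 to 3.33, 3.29 to 3.61, 3.06 to 3.19 and 3.10 to 3.40. The call of CAP2 held in 26 of 27 and 14 of 15 and was lost with the mean of its probe sets (0.12 and 0.24). With that mean CAP2 stood 3.28 above TKO and 3.20 above WT in PAR. Only 3 arrays a line and dim values outside PAR limit what could be seen of CAP2, NR2F1 and ANXA1. These 3 genes gave no value where the filter asked for 9 arrays, nor did ANXA1 with the mean of its probe sets. With the filter read only on the compared lines they gave values in the comparisons with PAR and none elsewhere, and FGF13 none for H762Y or CDM+MMSET1 against CDM. The causes of the moves below were not tested.

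Counts of genes called moved as follows. With every probe set tested, a larger number of features, they were 4790 for PAR against TKO, 7405 for PAR against WT, 11814 for the SET comparison, 7393 for WT+MMSET1 against CDM+MMSET1, 4175 and 3960 for 526-1240 and 526-1365 against CDM, 143 for 526-1365 against WT+MMSET1 and 2 for H762Y against CDM. With the spread from the compared lines alone they were 1926 for PAR against WT, 17 for 526-1365 against WT+MMSET1, 0 for H762Y against CDM, 50 for CDM+MMSET1 against CDM and 175 for the difference of differences. The replicate block, added to this fit of the compared lines alone, gave 290 for 526-1365 against WT+MMSET1, 0 for H762Y and for CDM+MMSET1 against CDM, and 292 for the difference of differences, and no call of the 5 genes changed. For H762Y against CDM (7 genes) the mean of the probe sets gave 0, no filter 4, and leaving out replicate 1 of every line, which was added after the data were seen, 4. For CDM+MMSET1 against CDM (6 genes) these gave 2, 3 and 0, trend with robust variances gave 3, and leaving out H762Y replicate 1 from the fit of all lines 17. That last fit gave 159 for the difference of differences (87 genes), and leaving out replicate 1 of every line gave 53. Genes high in PAR alone were 7, and genes low there 8, with a margin of 2, and with the mean of the probe sets 12 were low.

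Leaving out 1 array at a time gave 2526 to 3791 genes called for WT+MMSET1 against CDM+MMSET1 (lowest without WT+MMSET1 replicate 1), 1636 to 2949 for 526-1240 against CDM (without its replicate 3), 1399 to 3019 for 526-1365 against CDM (without its replicate 1), and 43 to 64 for 526-1365 against WT+MMSET1 (without WT+MMSET1 replicate 1). It gave 0 to 34 for H762Y against CDM (highest without H762Y replicate 1), 0 to 4 for CDM+MMSET1 against CDM, 42 to 96 for the difference of differences, and 24 to 46 genes high in PAR alone (highest without PAR replicate 1). For the 5 genes the ranges that crossed 0 were -0.02 to 0.05 for NR2F1 in the SET comparison, -0.26 to 0.02 for TEX14 and -0.08 to 0.23 for ANXA1 in WT+MMSET1 against CDM+MMSET1, -0.40 to 0.19 for TEX14 in 526-1240 against CDM and -0.18 to 0.62 for ANXA1 in 526-1365 against CDM. Between 526-1365 and WT+MMSET1 they were -0.40 to 0.02 for TEX14 and -0.26 to 0.54 for ANXA1, between H762Y and CDM -0.05 to 0.16 for CAP2 and -0.44 to 0.68 for FGF13, and between CDM+MMSET1 and CDM -0.14 to 0.17 for ANXA1, -0.10 to 0.03 for NR2F1 and -0.09 to 0.03 for FGF13. In the difference of differences they were -0.31 to 0.10 for TEX14 and -0.26 to 0.54 for ANXA1.

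Among these alternatives no change of sign concerned a called difference. The dimmer CAP2 probe set alone, which is not among them, gave -0.08 in both comparisons where CAP2 was called. Without replicate 1 of every line, TEX14 gave 0.03 in the SET comparison, 0.00 for WT+MMSET1 against CDM+MMSET1 and 0.13 for 526-1240 against CDM. CAP2 gave -0.03 for 526-1240 against CDM. ANXA1 gave -0.01 for 526-1365 against CDM, -0.11 for 526-1365 against WT+MMSET1, 0.08 for CDM+MMSET1 against CDM and -0.03 for the difference of differences. NR2F1 gave -0.01 for WT+MMSET1 against CDM+MMSET1, 0.02 for H762Y against CDM and 0.06 for CDM+MMSET1 against CDM, and FGF13 -0.45 for H762Y against CDM. Centred arrays gave -0.01 for NR2F1 in the SET comparison, and the mean of the probe sets 0.03 for CAP2 in CDM+MMSET1 against CDM.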
